A study of Mus musculus with 22 samples.

Results

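Myoc, Cpxm2, Pi16, Meg3 and Nfatc4, 5 of the 16556 genes measured in mouse kidney cortex, were described across genotype and age. They were chosen by their large rise in 12-month-old Pt-CrAT kidneys, so their values in that comparison are given as a description with no test. Whether they follow one another was asked in the libraries that the choice did not use. The 22 libraries, 1 per animal title, came from male C57BL/6J mice. Pt-CrAT mice lack carnitine acetyltransferase, encoded by Crat, in proximal tubular cells through a Cre recombinase under the Ggt promoter; fl/fl mice are their counterparts. There were 3 Pt-CrAT and 3 fl/fl libraries at 12 months with the word LFD in the title, which the labels do not spell out, 3 and 3 at 15 months on chow, and 5 and 5 at 24 months on chow. The 12-month group differs from the others in both age and diet word, and these cannot be told apart.

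All 5 genes are known from cells other than the proximal tubule. Myoc encodes myocilin, a secreted glycoprotein with an olfactomedin domain that is best known from the outflow tissue of the eye and from inherited glaucoma. Cpxm2 encodes a secreted relative of the metallocarboxypeptidases that is thought to lack their enzyme activity. Pi16 encodes a secreted protein with a CAP domain and is widely used as a marker of the fibroblasts of the vessel adventitia and of a fibroblast population shared by many organs. Meg3 is a long noncoding RNA made from the maternal copy of the imprinted Dlk1-Dio3 region. Nfatc4 encodes a transcription factor that moves into the nucleus when calcineurin removes its phosphates. Adventitial fibroblasts form a loose sleeve around arteries, outside the smooth muscle, and make up a small share of the cortex, whose RNA comes mostly from tubules.

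Libraries were made from the 3' ends of polyadenylated RNA, 1 tag per transcript, and levels are given in CPM (counts scaled to a library of fixed size) after TMM scaling. Total counts were 12175804 to 17447367 in 21 of the libraries and 53157575 in CrAT12MLFD345, a Pt-CrAT library. Crat itself, the targeted gene, was at 42.4, 81.1 and 64.2 CPM in Pt-CrAT against 54.0, 84.6 and 98.0 CPM in fl/fl libraries at 12 months. At 15 months it was at 63.1, 72.6 and 71.8 CPM in libraries labelled Pt-CrAT against 41.5, 34.3 and 60.0 CPM in those labelled fl/fl, the reverse of the labels. At 24 months it was at 28.4 to 38.9 CPM in Pt-CrAT against 43.5 to 112 CPM in fl/fl libraries. Which exons were removed is not stated in the labels, and a 3' tag may lie outside them and is a weak check. The tubule transcript Kap was low in the Pt-CrAT libraries CrAT24Mchow123 and CrAT24Mchow136, at 4565 and 2853 CPM against 18930 to 28810 CPM in the other 3, and results that use them were repeated without them. The summed level of 11 nephron markers of the cortex was 37470 to 70670 CPM at 12 and 15 months. At 24 months it was 11930 to 38970 CPM in Pt-CrAT against 34000 to 43200 CPM in fl/fl libraries. Kap was the most abundant of the 11, at a mean of 31150 CPM over all libraries. The next, Slc34a1, was at 6724 CPM, so the sum largely restates Kap. Of the 11, 1 was called at 12 months, Lrp2, lower in Pt-CrAT, a call lost in 3 of 6 fits with 1 library left out.

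On GRCm38, Myoc lies on chromosome 1 at 162639155 to 162649693 (plus strand), Cpxm2 on chromosome 7 at 132032687 to 132154739 (minus strand) and Meg3 on chromosome 12 at 109541001 to 109571726 (plus strand). Pi16 lies on chromosome 17 at 29317680 to 29330593 and Nfatc4 on chromosome 14 at 55823144 to 55833943, both on the plus strand, so no 2 of the 5 are neighbours. Meg3 is annotated as a long intergenic noncoding RNA and the other 4 as protein-coding. Cpxm2 lies within the annotated span of Fgfr2 on the same strand, and reads of the 2 genes may not be separable; Fgfr2 averaged 3.91 CPM. The stretches of DNA just before the start of Myoc, Cpxm2 and Meg3 are shown because Myoc and Cpxm2 followed each other across libraries and Meg3 followed Pi16. They come from RefSeq on GRCm38, are written in the direction of the gene, and end before its first annotated base; capitals mark a CCAAT box, a TATA box (letters TATAAA), a GC box or a cyclic AMP response element (TGACGTCA) on either strand.
Myoc (chr1:162638900-162639149, plus strand): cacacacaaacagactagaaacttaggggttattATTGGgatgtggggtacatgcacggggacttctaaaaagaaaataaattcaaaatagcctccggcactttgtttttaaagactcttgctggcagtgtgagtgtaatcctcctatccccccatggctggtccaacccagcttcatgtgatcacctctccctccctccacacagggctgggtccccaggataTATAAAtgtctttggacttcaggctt
Cpxm2 (chr7:132154766-132154991, minus strand): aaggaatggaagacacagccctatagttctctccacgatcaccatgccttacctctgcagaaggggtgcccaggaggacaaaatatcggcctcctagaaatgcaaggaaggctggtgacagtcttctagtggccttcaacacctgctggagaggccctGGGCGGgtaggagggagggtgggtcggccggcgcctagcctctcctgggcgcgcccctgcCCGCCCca
Meg3 (chr12:109540746-109540995, plus strand): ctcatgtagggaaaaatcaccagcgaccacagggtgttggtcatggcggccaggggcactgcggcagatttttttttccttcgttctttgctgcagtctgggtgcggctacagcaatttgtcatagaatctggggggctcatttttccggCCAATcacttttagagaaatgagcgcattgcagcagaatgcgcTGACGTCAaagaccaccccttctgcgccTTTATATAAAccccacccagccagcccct

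The Myoc stretch held a TATA box 26 bases before its end, and the Meg3 stretch held one 25 bases before its end that overlaps a copy on the other strand. This box occurred in 12.4% of 32841 mouse stretches of that length. Meg3 also held a CCAAT box and a cyclic AMP response element, which occurred in 33.9% and 1.55% of stretches. Myoc held a CCAAT box on the other strand. Cpxm2 had no TATA box but 2 GC boxes (GGGCGG), 1 on each strand, in a stretch of 61.5% G and C with 9 CG pairs; 29.3% of stretches of its length held a GC box. Myoc had 46.8% G and C with 2 CG pairs, against a median of 52.4% over all stretches. No motif in this set was in all 3 stretches, and GGAAA, the core letters bound by NFAT factors, was in Meg3 alone, where 55.6% of stretches of that length hold it. A match is a string of letters and not a measured binding site.

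Myoc was at 7.30, 12.7 and 15.7 CPM in Pt-CrAT libraries of 12 months against 0.240, 0.0668 and 0.204 CPM in fl/fl libraries of that age, where it rested on 3, 1 and 3 reads. At 15 months it was at 3.46, 9.91 and 3.70 CPM in libraries labelled Pt-CrAT against 6.04, 4.67 and 0.231 CPM in those labelled fl/fl. At 24 months it was at 0.393, 0.0727, 1.54, 0.596 and 0.645 CPM in Pt-CrAT against 0.349, 0.467, 0, 0.231 and 0.211 CPM in fl/fl libraries. The groups are thus wholly apart at 12 months and overlap at 15 and 24 months, and Wt15Mchow227, a library labelled fl/fl, was as low as the fl/fl libraries of 12 months. The library at 0, Wt24Mchow164, allows up to 0.226 CPM on the basis of 3 counts. Ordered by mean, Myoc ran from Pt-CrAT of 12 months (11.9 ± 4.24 CPM, SD, n = 3) through Pt-CrAT of 15 months (5.69 ± 3.65, n = 3), fl/fl of 15 months (3.65 ± 3.04, n = 3), Pt-CrAT of 24 months (0.649 ± 0.545, n = 5) and fl/fl of 24 months (0.252 ± 0.174, n = 5) to fl/fl of 12 months (0.170 ± 0.0913, n = 3). Every neighbouring pair in that order overlapped.

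Cpxm2 was at 12.97, 16.2 and 19.9 CPM in Pt-CrAT libraries of 12 months against 0.879, 2.004 and 2.92 CPM in fl/fl libraries. At 15 months it was at 8.13, 10.1 and 4.02 CPM in libraries labelled Pt-CrAT against 12.1, 8.66 and 1.77 CPM in those labelled fl/fl. The lowest of these was again Wt15Mchow227. At 24 months it was at 1.70, 3.56, 5.73, 3.11 and 4.51 CPM in Pt-CrAT against 5.38, 3.58, 3.32, 3.62 and 3.59 CPM in fl/fl libraries. Its order by mean put Pt-CrAT of 12 months (16.4 ± 3.47 CPM) clear of all other groups, and the 15-month groups above the 24-month groups, with overlap between each further pair of neighbours.

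Pi16 was at 25.7, 28.9 and 35.8 CPM in Pt-CrAT libraries of 12 months against 6.24, 13.4 and 13.5 CPM in fl/fl libraries. At 15 months it was at 13.3, 28.1 and 17.6 CPM in libraries labelled Pt-CrAT against 14.7, 9.07 and 5.61 CPM in those labelled fl/fl. At 24 months it was at 15.0, 14.4, 13.9, 5.36 and 17.4 CPM in Pt-CrAT against 12.2, 15.3, 14.9, 16.1 and 14.5 CPM in fl/fl libraries. The groups overlapped at 15 and 24 months, and Pi16 in CrAT24Mchow136, the library lowest in Kap, was far under the rest of its group. Unlike Myoc, Pi16 was at its lowest mean in fl/fl of 15 months (9.79 ± 4.58 CPM).

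Meg3 was at 6.57, 7.15 and 8.87 CPM in Pt-CrAT libraries of 12 months against 2.24, 2.87 and 2.31 CPM in fl/fl libraries. At 15 months it was at 3.39, 5.10 and 3.78 CPM in libraries labelled Pt-CrAT against 3.44, 2.34 and 1.54 CPM in those labelled fl/fl. At 24 months it was at 3.41, 3.92, 4.88, 2.91 and 2.51 CPM in Pt-CrAT against 2.65, 4.04, 3.32, 4.55 and 2.60 CPM in fl/fl libraries. Pt-CrAT of 12 months stood clear of every other group, and the other 5 groups overlapped with their neighbours. Of the 7 other genes listed for the Dlk1-Dio3 region, Dlk1 and Dio3 were analysed here, and Dio3 alone had enough reads to test. Dio3, which encodes the enzyme that inactivates thyroid hormone, was at 1.11 ± 0.324 CPM in Pt-CrAT against 1.53 ± 0.499 CPM in fl/fl libraries of 12 months (SD, n = 3 each), and it passed the test in none of the comparisons.

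Nfatc4 was at 10.5, 12.3 and 7.41 CPM in Pt-CrAT libraries of 12 months against 1.68, 3.21 and 6.04 CPM in fl/fl libraries. At 15 months it was at 4.97, 5.45 and 1.93 CPM in libraries labelled Pt-CrAT against 3.37, 5.09 and 2.84 CPM in those labelled fl/fl. At 24 months it was at 7.14, 5.60, 4.93, 7.02 and 7.38 CPM in Pt-CrAT against 3.98, 9.64, 6.11, 7.40 and 4.50 CPM in fl/fl libraries. Its order therefore differed from that of Myoc and Cpxm2: both 24-month groups (6.41 ± 1.08 CPM in Pt-CrAT and 6.33 ± 2.29 CPM in fl/fl, n = 5 each) were above both 15-month groups (4.12 ± 1.91 CPM in Pt-CrAT and 3.76 ± 1.17 CPM in fl/fl, n = 3 each), with ranges that overlapped.

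**Figure D1:**
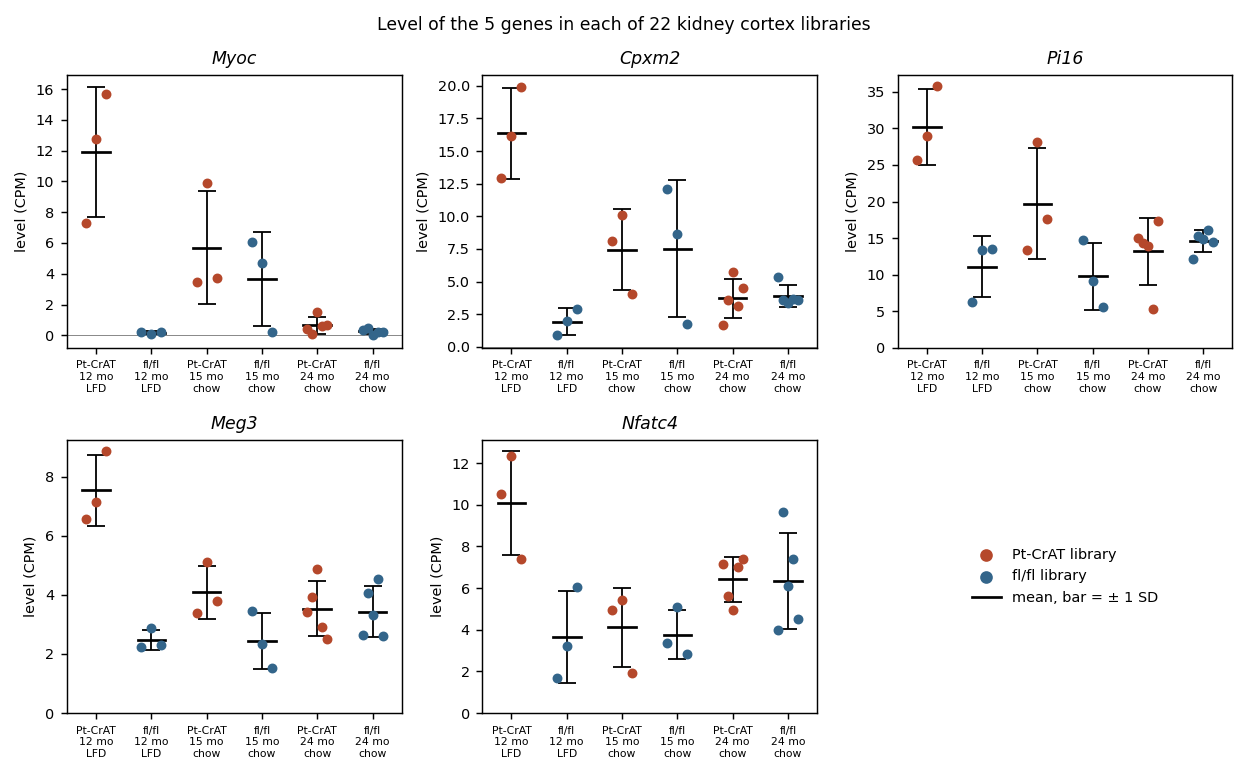
Level of each gene in CPM (linear axis from 0) in every library, by genotype, age and diet word; bars are the mean ± 1 SD. All 5 genes are above the fl/fl libraries in the Pt-CrAT libraries of 12 months, and Myoc at 24 months lies at 1.54 CPM or lower.

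In the comparison that chose them, the 5 genes were higher in every Pt-CrAT library of 12 months than in every fl/fl library, a pattern that 16.3% of the 15064 genes tested also showed. The log2 fold change, Pt-CrAT over fl/fl, was 6.11 for Myoc (SE 0.95), 3.07 for Cpxm2 (SE 0.52), 1.61 for Meg3 (SE 0.29), 1.45 for Pi16 (SE 0.36) and 1.44 for Nfatc4 (SE 0.39). All 5 had passed the filter on low counts. Over all genes tested, 8.41% of genes were called higher and 7.95% lower at this age, 2464 genes in all. That number was 53 without CrAT12MLFD328, 391 without CrAT12MLFD337, 408 without Wt12MLFD326 and 1 when the 12-month libraries were fitted alone.

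At 15 months no gene in the table was called between the genotypes (0% of genes tested by edgeR's quasi-likelihood test, 0 by DESeq2, with 1249 at an unadjusted p under 0.05), so none of the 5 was. Pi16 had a log2 fold change of 1.01 (SE 0.37) and Meg3 one of 0.75 (SE 0.30), higher in libraries labelled Pt-CrAT in both cases, with an edgeR adjusted p of 0.581 for each. Myoc was at 0.64 (SE 0.66, adjusted p = 0.716), Nfatc4 at 0.13 (SE 0.41, adjusted p = 0.919) and Cpxm2 at -0.01 (SE 0.48, adjusted p = 0.994). The sign for Myoc turned without CrAT15Mchow185 (-0.04), and those for Cpxm2 and Nfatc4 turned with several single libraries left out. At 24 months again 0% of genes were called by edgeR (13 by DESeq2, 1409 at an unadjusted p under 0.05). Myoc had a log2 fold change of 1.40 (SE 0.85, adjusted p = 0.597) and the other 4 were between -0.14 for Pi16 (SE 0.28) and 0.05 for Meg3 (SE 0.23), with adjusted p from 0.878 to 0.985. The change of the genotype difference between the 2 ages was called for no gene (0% by edgeR, 23 genes by DESeq2, 2255 at an unadjusted p under 0.05). For Pi16 it was -1.15 (SE 0.46, adjusted p = 0.294), and for Meg3 -0.70 (SE 0.38, adjusted p = 0.365).

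Outside the choosing comparison, Myoc differed between the libraries of 15 and 24 months. These are separate animals, and the labels do not say whether the ages were handled together. In fl/fl libraries Myoc averaged 0.170 CPM at 12 months, with LFD in the title, and 0.252 CPM at 24 months. Since Crat went against the genotype labels at 15 months, "Pt-CrAT" and "fl/fl" in the comparisons between ages below mean the libraries so labelled. Myoc fell by 3.06 on the log2 scale at 24 against 15 months in libraries labelled Pt-CrAT (SE 0.65, edgeR adjusted p = 0.00603), where every 24-month library was below every 15-month one. It fell by 3.82 in those labelled fl/fl (SE 0.78, adjusted p = 0.0215), where Wt15Mchow227 lay among the 24-month libraries. For background, 5.71% of genes were called lower in Pt-CrAT and 0.478% in fl/fl kidneys (11.3% and 1.3% called in either direction). In Pt-CrAT the call was lost without CrAT15Mchow185 (adjusted p = 0.0688) and without both low-Kap libraries (adjusted p = 0.0619). In fl/fl it was lost with limma-voom (adjusted p = 0.148) and without Wt15Mchow205 (0.108), Wt15Mchow225 (0.0788), Wt24Mchow164 (0.0515) or Wt24Mchow165 (0.0577). With only the fl/fl groups compared, Myoc fell under the filter on low counts and could not be fitted. The fl/fl call thus exists only because libraries outside that comparison carried Myoc past the filter. The adjusted p over the alternatives that could be fitted ran from 0.00313 to 0.0688 in Pt-CrAT and from 0.00211 to 0.148 in fl/fl kidneys. Averaged over both labels, a value that is the same if the labels of the 15-month groups are exchanged and that was added after the data were seen, Myoc fell by 3.44 (SE 0.50, adjusted p = 0.000264), and it was called in all 16 fits that omit 1 library (highest adjusted p 0.0015) and without both low-Kap libraries (0.00169). On that average 6.97% of genes were called lower.

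None of the other 4 genes passed the test between the ages within a label. Cpxm2 had log2 fold changes of -0.99 in Pt-CrAT (SE 0.43, adjusted p = 0.139) and -0.94 in fl/fl kidneys (SE 0.43, adjusted p = 0.211). Averaged over both labels it was at -0.97 (SE 0.30, adjusted p = 0.0345), a call lost in 9 of the 16 fits with 1 library left out (adjusted p 0.00412 to 0.142) and without both low-Kap libraries (0.0979). Nfatc4 had positive values, 0.63 in Pt-CrAT (SE 0.36, adjusted p = 0.260) and 0.74 in fl/fl kidneys (SE 0.36, adjusted p = 0.237). Its average over both labels was 0.68 (SE 0.25, adjusted p = 0.0676), and it was not called in 15 of the 16 fits with 1 library left out (adjusted p 0.0445 to 0.184). Pi16 had values of opposite sign, -0.58 in Pt-CrAT (SE 0.32, adjusted p = 0.244) and 0.57 in fl/fl kidneys (SE 0.33, adjusted p = 0.309). Meg3 did likewise, at -0.21 (SE 0.26, adjusted p = 0.643) and 0.49 (SE 0.27, adjusted p = 0.295). Of the 11 nephron markers, 4 were called lower and 2 higher with age in Pt-CrAT, and 1 lower in fl/fl kidneys. For background, 5.71%, 5.61% and 0.478% of all genes were. Slc5a2, the sodium and glucose carrier of the early proximal tubule, fell by 1.24 in Pt-CrAT (SE 0.18, adjusted p = 0.000743). It fell by 0.80 in fl/fl kidneys (SE 0.18, adjusted p = 0.0311), a call lost in 6 of 8 fits with 1 library left out. Aqp2 (1.42, SE 0.30, adjusted p = 0.00555) and Slc12a1 (0.80, SE 0.24, adjusted p = 0.0341) rose in Pt-CrAT. Neither rise was called without both low-Kap libraries. The part of these changes in the members' values was not tested.

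**Figure D2:**
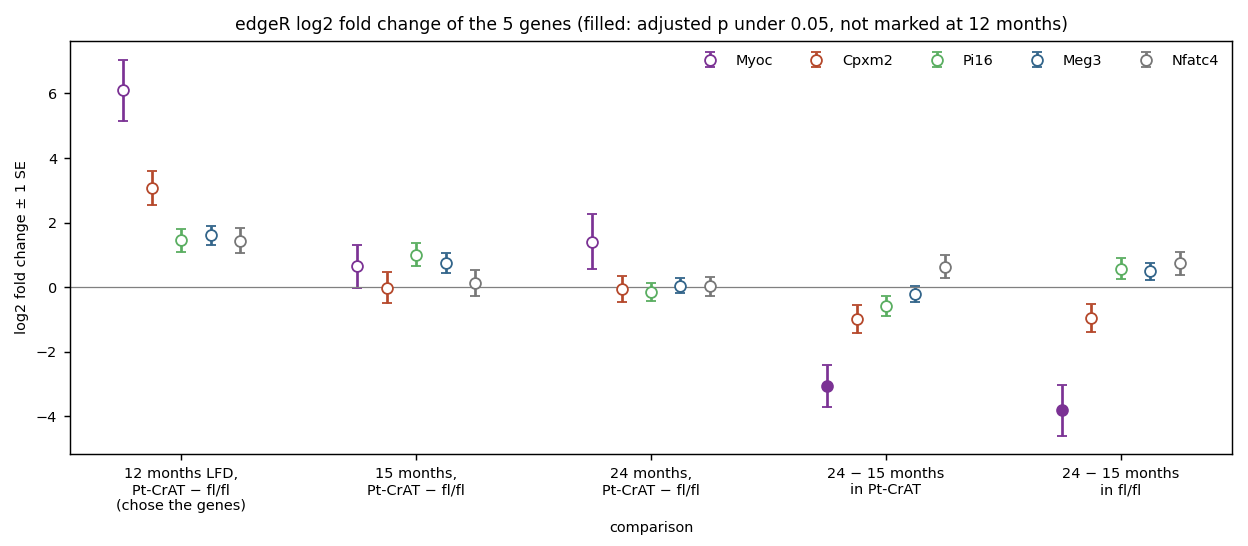
Log2 fold change of each gene with its standard error in 5 comparisons, Pt-CrAT over fl/fl or 24 over 15 months. Filled points mark an adjusted p under 0.05 outside the choosing comparison. These are the 2 values for Myoc, -3.06 in Pt-CrAT and -3.82 in fl/fl. In fl/fl, Myoc passed the filter on low counts only through libraries outside that comparison, so that point is no support by itself. Each call was lost in at least 1 fit with a single library left out.

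Whether the genes follow one another was tested over the 16 libraries of 15 and 24 months on log2(CPM + 0.5), for the 10 pairs of genes. Myoc and Cpxm2 followed each other, with Pearson's r = 0.81 (permutation p = 0.00021, adjusted p = 0.0021) and Spearman's rho = 0.75 (permutation p = 0.00124). Pi16 and Meg3 did so with r = 0.69 (permutation p = 0.00345, adjusted p = 0.0172) and rho = 0.54 (permutation p = 0.0320). For the other 8 pairs r was -0.35 to 0.37, with adjusted p of 0.384 or higher, and no pair with Nfatc4 passed the threshold. Myoc separated most libraries by age, so the values within an age matter more than the pooled one.

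Within the 6 libraries of 15 months, Myoc and Cpxm2 had r = 0.90 and rho = 0.89 (exact permutation p = 0.0181 for r, adjusted p = 0.0833), and within the 10 of 24 months r = 0.39 and rho = 0.35 (permutation p = 0.258 for r). After each group's mean was subtracted, r over the 16 libraries was 0.83 (permutation p = 0.0001, adjusted p = 0.001). Without the 2 libraries farthest from the Myoc median, CrAT15Mchow185 and Wt15Mchow205, r was 0.68 (permutation p = 0.00795, adjusted p = 0.0795), so passing the threshold rests on those libraries. Pi16 and Meg3 had r = 0.99 and the same order of all 6 libraries at 15 months (exact permutation p = 0.00139, adjusted p = 0.0139), and r = 0.23 at 24 months (permutation p = 0.618). With each group's mean subtracted over the 16 libraries, Pi16 and Meg3 did not pass the threshold. Without the 2 libraries farthest from the Pi16 median, CrAT24Mchow136 and Wt15Mchow227, r was 0.60 (permutation p = 0.0183, adjusted p = 0.0914), so that relation rests on them too. At 15 months Myoc also had r = 0.85 with Pi16 and r = 0.86 with Meg3, neither past the threshold (exact permutation p = 0.0347 and 0.0250, adjusted p = 0.0868 and 0.0833). At 24 months, where Myoc was at 0 to 29 reads in a library, r for the 10 pairs was -0.46 to 0.39 and no adjusted p was under 0.935.

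**Figure D3:**
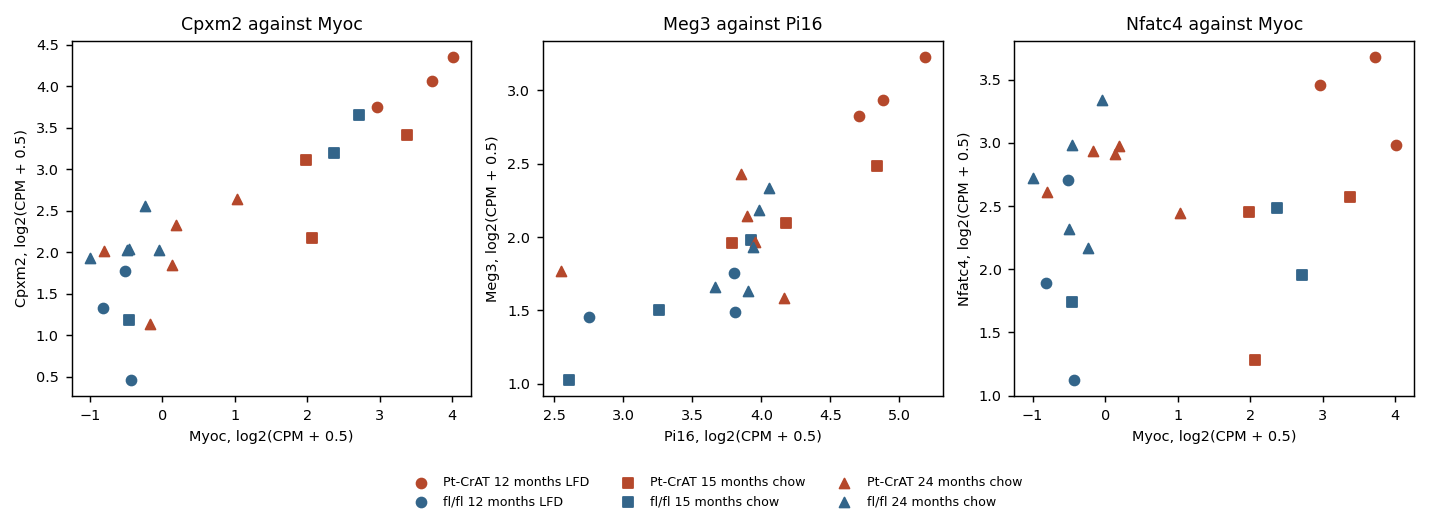
Levels on a log2(CPM + 0.5) scale of 3 pairs of genes, 1 point per library, with colour for genotype and symbol for age. Cpxm2 rises with Myoc (r = 0.81 over the 15- and 24-month libraries) and Meg3 with Pi16 (r = 0.69), while Nfatc4 has r = -0.35 with Myoc.

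The genes most like each member were ranked over all 22 libraries by r among 13313 genes of at least 1 CPM, as a description with no p, since these libraries share depth and groups and include those that chose the members. With group means subtracted, the closest to Myoc were Mios (r = 0.87), Mfap5 (0.86), Igfbp6 (0.84), Clec3b (0.77) and Cpxm2 (0.77). Mfap5, a protein of elastic microfibrils, Igfbp6, a binding protein for insulin-like growth factors, and Clec3b, which encodes tetranectin, were on the list of adventitial fibroblast markers, and Mios encodes part of a nutrient-sensing complex. The closest to Cpxm2 were Lonp2 (0.85), Cxcr3 (0.84), Mfap5 (0.81), Ccdc3 (0.80) and Myoc (0.77). With group means kept, Igfbp6, Clec3b, Adipoq and Plin1 were among the closest 5 of both Myoc (r = 0.88, 0.87, 0.84 and 0.80) and Cpxm2 (0.88, 0.89, 0.83 and 0.80). Adipoq encodes the fat cell hormone adiponectin and Plin1 a coat protein of the fat droplet.

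The genes closest to Pi16 were of other kinds: with group means subtracted they were Chfr (r = 0.94), Slc19a1 (0.92), Rpap3 (0.91), Asb13 (0.89) and Fuom (0.89), none of them on a list used here. Its r with Meg3 was 0.57, in place 1117 of the ranking, and with Myoc 0.44, in place 2182; with group means kept, Meg3 was in place 13 (0.83). With means subtracted, among the closest to Meg3 were Eps8l3 (0.74), Abhd18 (0.72), Gm20045 (0.72) and Pfdn4 (0.71), with Myoc in place 61 (0.59) and Pi16 in place 76 (0.57). With group means kept, the closest 5 held Pi16 in place 3 (0.83), Mfap5 (0.82) and Retn, which encodes the fat cell hormone resistin (0.80). The closest to Nfatc4 were Ermp1 (0.88), Olfml1 (0.87), Mob3a (0.86), Mrvi1 (0.86) and Rock2 (0.85), and the best placed other member, Cpxm2, was in place 3339 (0.34). Olfml1 encodes a secreted relative of myocilin, and Rock2 a kinase that controls contraction of the cell's actin.

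**Figure D4:**
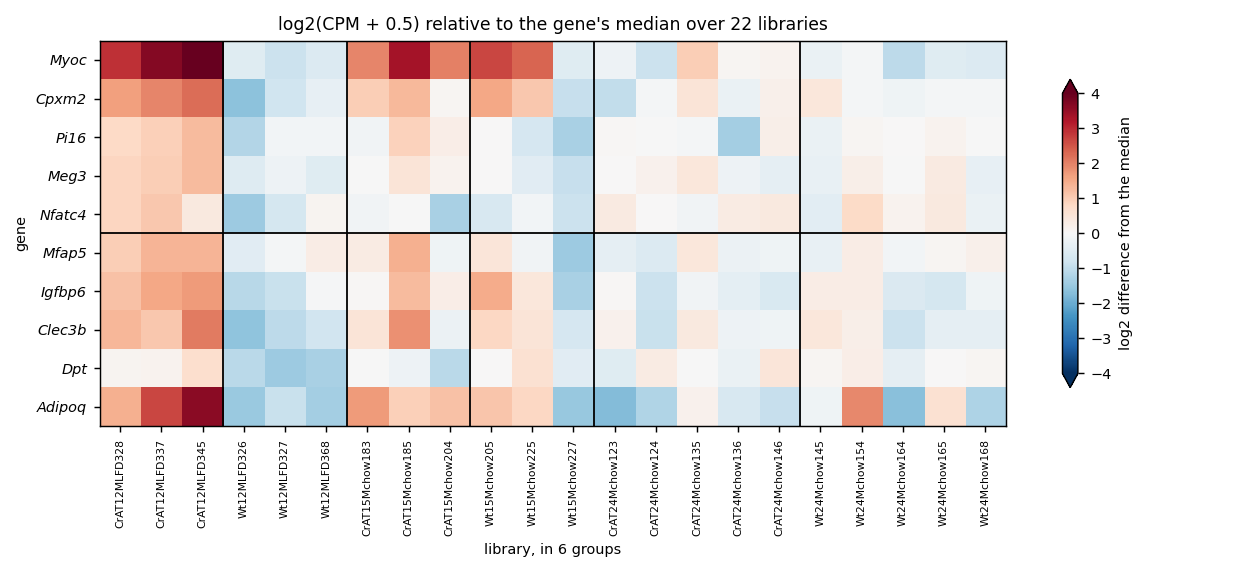
Level of the 5 genes (above the line) and of 4 adventitial fibroblast markers and Adipoq (below it) on a log2(CPM + 0.5) scale relative to each gene's median over 22 libraries. The 4 markers are those called higher in Pt-CrAT at 12 months. In Wt15Mchow227, Myoc, Cpxm2, Mfap5, Igfbp6 and Adipoq are low together, at 0.231, 1.77, 0.231, 0.0769 and 0.307 CPM. Dpt and Clec3b were each at 0.7685 CPM in it, also the lowest of their group. Both were lower elsewhere, Dpt in CrAT15Mchow204 (0.322 CPM) and Clec3b in CrAT24Mchow124 (0.581 CPM). The sums of the full lists were not low in Wt15Mchow227. The adventitial sum was 503 CPM in a group range of 482 to 565, and the adipocyte sum 110 CPM, the highest of its group.

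The cell types that could carry these transcripts were read from marker lists. In bulk tissue, more cells of a type and more RNA per cell cannot be told apart. At 12 months, 4 of the 18 adventitial fibroblast markers tested were called higher in Pt-CrAT and 1 lower, beside 8.41% and 7.95% of all genes, with a median log2 fold change of 0.29 against 0.00 for all genes. The 4 were Dpt (log2 fold change 2.97), Mfap5 (1.56), Igfbp6 (2.98) and Clec3b (3.61), and the 1 lower was Ackr3, a scavenging chemokine receptor (-0.94). Clec3b was at 4.57, 3.78 and 7.94 CPM in Pt-CrAT against 0.160, 0.468 and 0.679 CPM in fl/fl libraries. Dpt, which encodes the matrix protein dermatopontin, was at 1.37, 1.40 and 2.27 CPM in Pt-CrAT against 0.320, 0.134 and 0.204 CPM in fl/fl libraries. Groups did not overlap for these genes, but the summed list, in which Ly6a was the most abundant gene, was at 638 to 712 CPM in Pt-CrAT against 601 to 673 CPM in fl/fl libraries, which overlap. With single 12-month libraries left out, 2 to 5 of the list were called higher, and Dpt and Clec3b were called each time.

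In the wider list of 24 fibroblast and matrix genes, 1 was called higher in Pt-CrAT, Sparc, a secreted matrix glycoprotein (0.65), and 5 lower, with a median log2 fold change of -0.06. The 5 were Pdgfra (-0.94) and Pdgfrb (-1.15), the receptors for platelet-derived growth factor that mark fibroblasts and pericytes, and the collagen genes Col1a2 (-0.92), Col6a3 (-1.34) and Col14a1 (-0.84). With single 12-month libraries left out, the calls for Pdgfra, Pdgfrb, Col1a2 and Col6a3 were each lost in 3 of 6 fits. That for Col14a1 was lost in 2 and that for Sparc in 4. The sum of this list was at 528 to 595 CPM in Pt-CrAT against 426 to 553 CPM in fl/fl libraries. Of the 14 smooth muscle and pericyte genes 2 were called higher and 1 lower, of the 14 Schwann cell and nerve genes 1 and 1, and of the 12 endothelial genes 0 and 1, against the same 8.41% and 7.95% of all genes. Among 7 mesothelial, 8 urothelial and 2 skeletal muscle genes tested none was called at this age by edgeR (2, 1 and 0 at an unadjusted p under 0.05).

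Fat cell markers moved with the members at 12 months. Of the 11 adipocyte genes tested 8 were called higher in Pt-CrAT and none lower, against 8.41% and 7.95% of all genes, with a median log2 fold change of 3.14. With single 12-month libraries left out 2 to 8 were called higher, the lowest count without Wt12MLFD326, and the median ran from 1.68 without CrAT12MLFD345 to 3.65 without CrAT12MLFD328. Adipoq was at 5.75, 14.1 and 28.0 CPM in Pt-CrAT against 0.320, 0.735 and 0.407 CPM in fl/fl libraries. Within Pt-CrAT it was lowest in CrAT12MLFD328 and highest in CrAT12MLFD345, the most deeply sequenced library, as were Myoc, Cpxm2, Pi16 and Meg3. Nfatc4 was instead lowest in CrAT12MLFD345, at 7.41 CPM, and highest in CrAT12MLFD337, at 12.3 CPM. The summed list was at 78.7 to 276 CPM in Pt-CrAT against 45.6 to 87.1 CPM in fl/fl libraries, and of its genes Lep was at 0 in 9 of the 22 libraries. The part of fat tissue in the members' 12-month values was not tested. At 15 months Adipoq was at 7.0, 3.96 and 4.75 CPM in libraries labelled Pt-CrAT against 4.51, 3.57 and 0.307 CPM in those labelled fl/fl, where Wt15Mchow227 was low as it was for Myoc. At 24 months the fl/fl library Wt24Mchow154 had 8.24 CPM of Adipoq with 0.467 CPM of Myoc, each the highest of its group. Wt24Mchow164 was the lowest of that group for both, at 0.226 and 0 CPM. In Pt-CrAT, CrAT24Mchow135 was highest for both, at 2.12 and 1.54 CPM. The lowest Pt-CrAT library differed, CrAT24Mchow123 for Adipoq (0.197 CPM) and CrAT24Mchow124 for Myoc (0.0727 CPM). The Pt-CrAT library CrAT24Mchow136 had the highest adipocyte sum of its group, 161 CPM, with 5.36 CPM of Pi16, the lowest. Its Adipoq was at 0.993 CPM, under the 2.12 CPM of CrAT24Mchow135. The sum and Adipoq thus rank libraries differently. Fabp4 and Cfd, at means of 45.8 and 30.6 CPM over all libraries, were the most abundant genes of the sum.

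Over the 16 libraries of 15 and 24 months, the members were set against the sums of 10 lists, 50 relations in all. Each sum is weighted to its most abundant genes. In the fibroblast and matrix list Sparc averaged 258 CPM over all libraries, and the next, Dcn, 45.8 CPM. In the adipocyte list Fabp4 averaged 45.8 CPM and Adipoq 4.16 CPM. Relations with a sum may therefore be those of a few genes, which was not tested. Myoc had r = -0.75 with the smooth muscle and pericyte sum (permutation p = 0.00094, adjusted p = 0.0235; rho = -0.51, permutation p = 0.0466). Nfatc4 had r = 0.75 with the fibroblast and matrix sum (permutation p = 0.00072, adjusted p = 0.0235; rho = 0.64, permutation p = 0.0096). The other 48 had adjusted p over 0.05, among them Myoc with the adipocyte sum (r = 0.08, adjusted p = 0.789) and with the adventitial sum (r = 0.46, adjusted p = 0.283). Whether the relations differ by age was not tested: at 24 months alone r was 0.03 for Myoc (permutation p = 0.944) and 0.08 for Nfatc4 (permutation p = 0.837), and at 15 months -0.47 (exact permutation p = 0.365) and 0.96 (exact permutation p = 0.00556, adjusted p = 0.0926). With the 2 libraries farthest from the median of the member left out, r was -0.62 for Myoc (adjusted p = 0.299) and 0.64 for Nfatc4 (adjusted p = 0.299), and neither passed.

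Several stromal genes were higher at 24 months in Pt-CrAT kidneys, where Myoc was lower. Between 24 and 15 months 5 of 24 fibroblast and matrix genes were called higher and none lower, among them Lox, which encodes the enzyme that crosslinks collagen (log2 fold change 1.28, SE 0.38, adjusted p = 0.0324), and Pdgfrb (1.08, SE 0.31, adjusted p = 0.0288). In the smooth muscle list 5 of 14 were called higher, among them Acta2 (1.04, SE 0.19, adjusted p = 0.00262) and Notch3 (1.23, SE 0.24, adjusted p = 0.00347). For background, 5.61% of genes were called higher in Pt-CrAT. Without both low-Kap libraries, 3 of the 24 fibroblast genes and 3 of the 14 smooth muscle genes were called, Acta2 (1.05, adjusted p = 0.0102) and Notch3 (1.22, adjusted p = 0.0174) among them, against 1.48% of all genes; Lox (1.12, adjusted p = 0.130) and Pdgfrb (1.02, adjusted p = 0.119) were not. With single libraries left out the counts were 0 to 6 fibroblast and 2 to 7 smooth muscle genes. In fl/fl kidneys Lox was the 1 fibroblast gene called higher (1.56, SE 0.39, adjusted p = 0.0475), against 0.823% of genes. That call was lost in 6 of 8 fits with 1 library left out. No smooth muscle gene was called there. At an unadjusted p under 0.05 were 8 fibroblast and 4 smooth muscle genes. Of the 24 fibroblast genes 22 had positive values in fl/fl (median 0.36) and 21 in Pt-CrAT (0.49). Of the 14 smooth muscle genes 13 were positive in each (0.23 in fl/fl, 0.77 in Pt-CrAT). The change of the genotype difference had a median of 0.002 for the fibroblast and 0.36 for the smooth muscle list. Of the 18 adventitial genes 3 were called higher (Anxa3, Creb5 and Il33) and 1 lower (Ly6a) in Pt-CrAT, of which Ly6a alone was called without both low-Kap libraries, and none in fl/fl kidneys by edgeR (6 at an unadjusted p under 0.05); Mfap5, Igfbp6, Clec3b and Dpt, which stood with Myoc at 12 months, were called in neither genotype. Urothelial genes, which mark the lining of the renal pelvis and not the cortex, were called higher in 5 of 8 in Pt-CrAT, among them Upk3a (3.74, SE 0.67, adjusted p = 0.00267), and in none of 8 in fl/fl kidneys (4 at an unadjusted p under 0.05). In Pt-CrAT 5 were also called without both low-Kap libraries and with each single library left out. Whether such calls differ between the genotypes was tested as the change of the genotype difference, for which edgeR called no gene; there all 8 urothelial genes had a positive value (median log2 fold change 1.99), 4 of them at an unadjusted p under 0.05.

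Relatives of the members by protein family were read against the same shares of all genes, 8.41% higher and 7.95% lower at 12 months and 5.61% higher and 5.71% lower between the ages in Pt-CrAT. Of the 6 olfactomedin-domain relatives of Myoc tested none was called at 12 months by edgeR (3 at an unadjusted p under 0.05); with age in Pt-CrAT kidneys Olfm1 rose by 0.52 on the log2 scale (SE 0.14, adjusted p = 0.0194). Of the 7 carboxypeptidase relatives of Cpxm2 1 was called lower at 12 months, Cpd (-0.57), which encodes a carboxypeptidase of the secretory pathway. The Cpd call was lost in 4 of 6 fits with 1 library left out. Of the 5 CAP-domain relatives of Pi16, Glipr1 was called lower at 12 months (-0.88), a call lost in 5 of 6 fits with 1 library left out. Crispld2 (0.89, SE 0.17, adjusted p = 0.00296) and Glipr2 (1.29, SE 0.38, adjusted p = 0.0319) were higher at 24 than at 15 months in Pt-CrAT kidneys. Without both low-Kap libraries Crispld2 was called (0.76, adjusted p = 0.0250), and Olfm1 (0.37, adjusted p = 0.147) and Glipr2 (1.21, adjusted p = 0.117) were not.

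Of the 12 calcineurin and NFAT genes tested around Nfatc4, 1 was called at 12 months, Nfat5, the factor of the response to high salt, lower in Pt-CrAT (-0.62), against 7.95% of all genes. The 12-month call was lost in 3 of 6 fits with 1 library left out. Between 24 and 15 months Nfat5 (0.83, SE 0.18, adjusted p = 0.00661) and Nfatc3 (0.57, SE 0.18, adjusted p = 0.0443) were higher in Pt-CrAT kidneys, against 5.61% of all genes, and neither was called without both low-Kap libraries (0.69, adjusted p = 0.0619, and 0.54, adjusted p = 0.128). Rcan1, a calcineurin inhibitor that NFAT factors induce, was the 1 gene of the 12 called with age in fl/fl kidneys, where 0.478% of genes were called lower (-0.81, SE 0.19, adjusted p = 0.0313), at 59.3 ± 10.8 CPM at 24 months (SD, n = 5) against 104 ± 18.7 CPM at 15 months (SD, n = 3). That call was lost in 6 of 8 fits with 1 library left out.

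Among 15 other imprinted genes tested beside Meg3, 3 were called higher and 2 lower in Pt-CrAT at 12 months, beside 8.41% and 7.95% of all genes, with a median log2 fold change of -0.47. The 3 were Nnat (3.61), a paternally expressed gene for a small membrane protein, Kcnq1ot1 (0.48) and Zrsr1 (0.66). The 2 were Igf2r (-1.52) and Grb10 (-0.50). With single 12-month libraries left out, Nnat was called each time. The other calls were lost in 2 (Kcnq1ot1), 3 (Zrsr1), 3 (Igf2r) and 4 (Grb10) of 6 fits. Nnat was at 0.457, 2.30 and 3.26 CPM in Pt-CrAT against 0.160, 0.134 and 0.204 CPM in fl/fl libraries. It was at 0.0655, 0.145, 0.318, 0.132 and 0.0716 CPM at 24 months against 1.66, 0.637 and 1.21 CPM at 15 months in Pt-CrAT kidneys, and so fell by 2.85 on the log2 scale (SE 0.66, adjusted p = 0.00875). That call, like the one for Myoc, was lost without both low-Kap libraries (-2.57, adjusted p = 0.0692), and its 15-month libraries are those whose Crat went against the label.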

How the data were processed

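Kidney cortex RNA of 22 mice was extracted with TRIzol and made into QuantSeq 3' FWD libraries, per the labels' protocols. The authors deposited raw counts for 16556 genes, of which none totals fewer than 66 reads over the libraries. They also deposited a normalized signal, counts divided by DESeq2 size factors, used here only for gene names. Per the submitters' processing notes, the genome build was GRCm38 and the tools were R 3.4.3 and DESeq2 1.18.1. Neither labels nor headers name an aligner, a counter, a strand setting or an annotation. The deposited column totals were left unused.

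Of the 16556 Ensembl identifiers, 16514 were found in GENCODE M21. The deposited names hold 4 of the 5 genes; Meg3 is unnamed there and was matched by identifier. edgeR 4.0.16 (R 4.3.3) was run on the counts with TMM scaling, filterByExpr (15064 genes left), and the robust quasi-likelihood test in 1 model of 22 libraries and 6 groups, which leaves 16 residual degrees of freedom. Adjustment was by Benjamini-Hochberg over every tested gene, with a threshold of 0.05. Log2 fold changes come from that fit. The biological coefficient of variation was 20.5%. Correlations used log2(CPM + 0.5) with two-sided permutation tests of 100000 resamples (exact for 6 libraries), adjusted over 10 or 50 relations, in SciPy 1.17.1 and NumPy 2.4.6. Alternatives were DESeq2 1.42.0 size factors and test, limma 3.58.1 voom, no filter, only the groups compared, other pseudocounts, each library left out and, chosen after the data were seen, without 2 low-Kap libraries, the list counts without single libraries, and the age change averaged over both genotype labels. The test was tried on simulated counts first.

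Labels of genotype and age, with the diet word in each title, gave the groups; the number in a title names the replicate, and no number is shared between groups. Nothing says whether animals shared a litter or day, so p-values measure the spread between these libraries. Within groups, each of the 32 pairs of libraries differed beyond counting noise (chi-square over its degrees of freedom, 9.43 to 123), and each library counts once. Reads carry no molecular identifiers, so the limit for a count of 0 covers counting error only. The 5 genes, the marker lists and the tests were chosen with earlier results of these data known. Named are the 5 genes, Crat, list genes that are abundant or pass the test in a 15- or 24-month comparison, and the 5 genes most like each member. List genes called at 12 months and named for that, Kap, and those given per library were chosen after their values were seen. In the likeness rankings, 1 gene is not reported here.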

Additional observations from a re-analysis of the deposited data

Results flagged for a closer look

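In 6 of 44 sets of 5 libraries looked at (12 genes and 10 marker sums, each within both 24-month groups), the highest or lowest library stood far from the others; chance flags about 1 in 20 such sets. Cpxm2 was highest in the fl/fl library Wt24Mchow145, at 5.379 CPM with the next library at 3.624 CPM. Pi16 was lowest in the Pt-CrAT library CrAT24Mchow136, at 5.362 CPM with the next at 13.94 CPM. Crat was lowest in the same library, at 28.4 CPM with the next at 37.74 CPM. That library also had the highest adipocyte sum, 160.8 CPM with the next at 84.79 CPM, and the highest urothelial sum, 162.0 CPM with the next at 90.09 CPM. It is 1 of the 2 Pt-CrAT libraries low in Kap. The smooth muscle and pericyte sum was lowest in CrAT24Mchow135, at 183.9 CPM with the next at 223.8 CPM; that library had the highest Myoc of its group, 1.54 CPM.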

How the results depend on the processing

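No paired analysis was possible because no replicate number is shared between groups. Called genes at 12 months numbered 1 with only the groups compared and 53 to 3513 with single libraries left out, against 2464. At 15 months they were 4 with only the groups compared, against 0. At 24 months they were 13 with DESeq2 and 0 to 2 with single libraries left out, against 0. Between the ages in Pt-CrAT they were 417 without both low-Kap libraries and 393 to 1777 with single libraries left out, against 1705; the lowest came without CrAT15Mchow204 (393), CrAT15Mchow185 (421) and CrAT24Mchow136 (1097). In fl/fl they were 764 with DESeq2 and 3 to 756 with single libraries left out, against 196. DESeq2 called 23 for the change of the genotype difference, against 0. Why these counts move was not tested, except that a fit of fewer libraries has fewer degrees of freedom.

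Signs turned for values that passed no test. With voom these were Cpxm2 at 15 months (0.28), and for the change of the genotype difference Myoc (-0.068) and Nfatc4 (0.033). Without both low-Kap libraries they were, at 24 months, Cpxm2 (0.24), Pi16 (0.051) and Nfatc4 (-0.10), and for the change of the difference Cpxm2 (0.24). With single libraries left out, 15-month values ran from -0.036 to 1.20 for Myoc, -0.48 to 0.50 for Cpxm2 and -0.13 to 0.45 for Nfatc4. The 24-month values ran from -0.28 to 0.12 for Cpxm2, -0.25 to 0.049 for Pi16, -0.10 to 0.17 for Meg3 and -0.10 to 0.22 for Nfatc4. Averaged over both genotype labels, the change with age was 0.14 for Meg3 and -0.0004 for Pi16. The change of the difference ran from -0.57 to 0.41 for Cpxm2 and -0.42 to 0.16 for Nfatc4.

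Of the gene pairs, 2 passed; 1 did with group means subtracted, 1 at 15 months alone, 0 at 24 months alone, 0 without the 2 farthest libraries and 5 with all 22 libraries and group means subtracted, a count that takes in the 12-month libraries that chose the genes and is no test of them. Turned signs of r were Myoc and Pi16 at 24 months (-0.18); Myoc and Nfatc4 with means subtracted (0.29 over 16 and 0.19 over 22 libraries), at 15 (0.45) and at 24 months (0.030); and Cpxm2 and Nfatc4 with means subtracted (0.24 and 0.34) and at 15 months (0.63). Of the pairs with marker sums, 2 passed; 1 did at a pseudocount of 0.1, 0 with means subtracted, 0 at 15 months, 0 at 24 months, 0 without the 2 farthest libraries and 4 without both low-Kap libraries. Myoc could not be fitted between the ages in fl/fl with only the groups compared, since it fell under the filter there. Fewer than 10 Myoc reads in most 24-month libraries limit what can be seen at that age.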
